A study of Mus musculus with 6 samples.

Results

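The vascular G protein-coupled receptors examined here were the apelin receptor gene Aplnr, the sphingosine-1-phosphate receptor genes S1pr1 and S1pr2, and Calcrl with Ramp2, which together make an adrenomedullin receptor. They were chosen by symbol, with earlier results of these data known, and all 5 were present among the 14005 genes of the deposited expression table. RNA-seq was available for 6 libraries of FLK1+ mesodermal cells from day 3.5 embryoid bodies (EBs), 3 from wild-type (WT) J1 embryonic stem (ES) cells and 3 from Scl-/- ES cells, in which the gene for the transcription factor SCL (Tal1) is disrupted. Each group came from 3 independent differentiations, numbered alike in both groups, and the study compared them to ask what SCL controls in blood-fated mesoderm. Both groups were differentiated without further treatment, and their FLK1+ cells were captured with an anti-FLK1 antibody on magnetic columns. The labels gave the strain as C57Bl/6 X Sv129 for both number 1 libraries and for WT replicate 2, as C57Bl/6 X Sv130 for Scl-/- replicate 2, as C57Bl/6 X Sv131 for WT replicate 3 and as C57Bl/6 X Sv132 for Scl-/- replicate 3. The libraries of a group were made from a single ES cell line, so these rising numbers do not name different strains within a group. How the numbers arose is not stated. The genotype and any other difference between the lines cannot be told apart.

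Apelin and ELABELA (Apela) signal through the apelin receptor, which is known in the early embryo from mesodermal progenitors and later from growing vessels. Sphingosine-1-phosphate is a lipid made by sphingosine kinases and exported from cells. S1PR1 couples to inhibitory G proteins and stabilises endothelial junctions, while S1PR2 couples to several classes of G protein. The calcitonin receptor-like receptor CALCRL reaches the cell surface only with a RAMP protein, a single-pass partner that sets its ligand, and with RAMP2 it binds adrenomedullin, which is needed for vessel integrity.

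Values were CPM, that is, read counts scaled to the size of each library and normalised by the authors, and the libraries held 38623641 to 47621120 reads on the listed genes. The 13991 genes that reached 0.5 CPM in 3 or more libraries, all 5 receptor genes among them, were tested with limma on log2(CPM + 0.5), a scale that understates the change of low genes. A gene was called at a Benjamini-Hochberg adjusted p under 0.05 with a log2 fold change beyond 0.48 in either direction, and each change is Scl-/- against WT. Across all tested genes, same-numbered libraries deviated together, although this did not hold for every single gene. Each test is therefore also given with the replicate number as a block, which changes the error of a fold change and not its size. The targeted gene Tal1 stood at 303, 182 and 306 CPM in WT and at 9.35, 5.68 and 5.87 CPM in Scl-/- libraries.

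Calcrl was lower, S1pr2 higher and Aplnr moderately lower in Scl-/- cells, while S1pr1 and Ramp2 overlapped between the groups. Of the 5 genes, 4 had a lower mean log2 level in Scl-/- cells and the median log2 fold change was -0.53, against a median of 0.01 over all genes tested. Without the block, 1 of 5 was called, against 2.36% of all genes tested, and that gene was lower, as were 1.57% of all genes. With the block, 3 of 5 were called against 12.6% of all genes, of which 2 were lower (6.6% of all genes) and 1 higher (6.04%). The WT and Scl-/- libraries did not overlap for 3 of 5, against 21.6% of all genes. RNA of a mixed population cannot tell fewer cells expressing a gene from less RNA per cell.

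**Figure D1:**
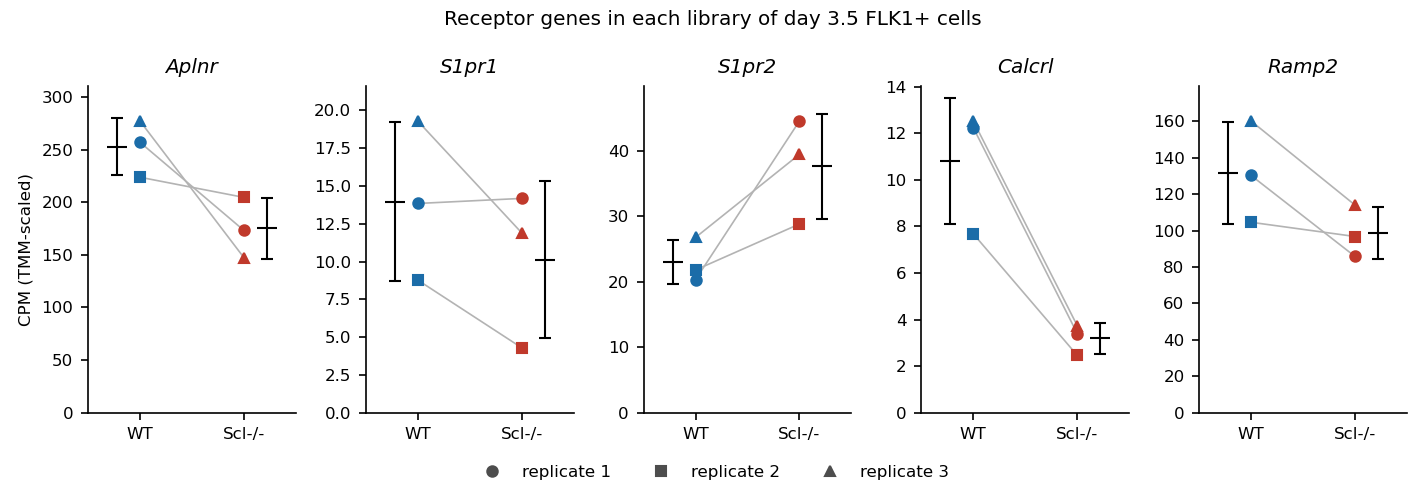
CPM of each receptor gene (vertical axes from 0, each with its own scale) in WT (blue) and Scl-/- (red) FLK1+ cells, with grey lines joining same-numbered libraries and black bars giving the mean and SD of 3 libraries. Calcrl falls from 7.68 to 12.5 CPM in WT to 2.47 to 3.74 CPM in Scl-/- cells, least steeply in the number 2 pair. S1pr2 is the gene that is higher in every pair.

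Levels per kilobase of exon, which can be compared between genes, spanned a wide range. In WT cells the mean was 70.9 ± 7.57 CPM per kb (SD, n = 3) for Aplnr, 39.9 ± 8.43 for Ramp2, 8.16 ± 1.20 for S1pr2, 4.61 ± 1.74 for S1pr1 and 2.22 ± 0.557 for Calcrl. The order was the same in Scl-/- cells, with means of 49.1 ± 8.04, 29.9 ± 4.31, 13.4 ± 2.85, 3.34 ± 1.71 and 0.656 ± 0.135 CPM per kb (SD, n = 3). Neighbours in this order did not overlap within either group. The step from Aplnr to Ramp2 depended on how Ramp2 was measured, since 1103 of its 3301 exon bases are shared with Vps25 on the same strand. Reads on the unshared bases were not counted separately. If all Ramp2 reads fell on the 2198 unshared bases, which gives an upper limit, Ramp2 ran from 47.6 to 72.9 CPM per kb in WT. In Scl-/- cells it then ran from 39.0 to 51.9. At this upper limit Ramp2 overlapped with Aplnr in both groups. Among all tested genes, the WT level of Aplnr per kb stood at the 93.5 percentile and that of Calcrl at the 18.7 percentile.

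The apelin receptor gene Aplnr (ENSMUSG00000044338) lies on chromosome 2 of mm9 from 84976517 to 84980079 on the plus strand. WT replicates 1, 2 and 3 held 257, 224 and 277 CPM of its RNA, and the same-numbered Scl-/- libraries 173, 205 and 147 CPM. All Scl-/- libraries were below all WT libraries, with the closest approach in the number 2 pair. The mean was 253 ± 27.0 CPM in WT and 175 ± 28.7 CPM in Scl-/- cells (SD, n = 3), 1.44-fold lower. The log2 fold change was -0.54 (standard error 0.14, 95% interval -0.87 to -0.20), which limma did not call (Benjamini-Hochberg adjusted p = 0.114). With the replicate block Aplnr was called at the same -0.54 (interval -0.83 to -0.24, limma's adjusted p = 0.0191). The replicate number took only 1.24% of the variance of Aplnr, so its own pairs gave no gain in precision. Limma's error also draws on the variance of other genes, and the narrower interval does not show that pairing held for Aplnr. The differences within pairs were -0.57, -0.13 and -0.91, and without the number 3 pair the blocked change was -0.35 and not called (limma's adjusted p = 0.102).

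The ligand genes of this receptor did not follow it. Apln, which encodes apelin, had 3.14, 6.22 and 3.62 CPM in WT and 6.68, 16.5 and 11.4 CPM in Scl-/- libraries. Every Scl-/- library was above every WT library and Apln was higher in 3 of 3 pairs. Its log2 fold change of 1.28 was called with the block (limma's adjusted p = 7.9e-04) and not without it (limma's adjusted p = 0.124). Apela, the gene of the other ligand (Gm10664 in the table), stayed between 1.65 and 2.01 CPM in WT and between 1.40 and 2.61 CPM in Scl-/- cells, and its log2 fold change was -0.01. Mme, whose product neprilysin cleaves peptides, had a log2 fold change of 0.37 that was not called either way. Of these 3 genes, 1 had an unadjusted p under 0.05 in the fit without the block, where limma called 0. With the block it called 1 of 3, against 12.6% of all genes tested.

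S1pr1 (ENSMUSG00000045092, chromosome 3 from 115413351 to 115417973, minus strand, mm9) was the gene whose level differed most between differentiations. It had 13.8, 8.78 and 19.3 CPM in WT and 14.2, 4.30 and 11.9 CPM in Scl-/- libraries. The groups overlapped, the number 2 library was the lowest of each group, and S1pr1 was lower in 2 of 3 pairs. The mean was 14.0 ± 5.26 CPM in WT and 10.1 ± 5.17 CPM in Scl-/- cells (SD, n = 3), a difference smaller than the spread between replicates. The log2 fold change of -0.53 had a 95% interval from -1.59 to 0.53 (limma's adjusted p = 0.641), and with the block from -0.95 to -0.12 (limma's adjusted p = 0.0674). Differences within pairs were 0.03, -0.95 and -0.67, and without the number 1 pair the blocked fold change was -0.81 and called (limma's adjusted p = 0.00134). Without Scl-/- replicate 2 the fold change without the block was -0.03.

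S1pr2 (ENSMUSG00000043895, chromosome 9 from 20770396 to 20781237, minus strand, mm9) moved in the opposite direction to the other receptor genes. It had 20.3, 21.8 and 26.8 CPM in WT and 44.5, 28.8 and 39.5 CPM in Scl-/- libraries. Every Scl-/- library was above every WT library, and the number 1 pair differed most. The mean was 23.0 ± 3.37 CPM in WT and 37.6 ± 8.02 CPM in Scl-/- cells (SD, n = 3), 1.64-fold higher. The log2 fold change was 0.69 (standard error 0.19, 95% interval 0.25 to 1.13), which limma did not call without the block (adjusted p = 0.119). With the block S1pr2 rose, with an interval from 0.38 to 1.00 (limma's adjusted p = 0.00912). Differences within pairs were 1.11, 0.39 and 0.55, and without the number 1 pair the blocked fold change was 0.47, just inside the fold threshold.

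SCL binds DNA as a dimer with E proteins at E-boxes, often beside GATA motifs. RefSeq promoter sequences of the GRCm38.p6 assembly matched 2 of the 5 genes, S1pr2 and Calcrl, the genes with the largest changes in each direction. These windows were searched for E-boxes (CANNTG), for the E-box CAGATG, which is also a CANNTG match, and for the GATA motif AGATAA, on both strands. The 250 bases before the S1pr2 start (chr9:20976794-20977043, minus strand) held 4 matches of CANNTG, which are in capitals, at 232, 221, 201 and 38 bases before the start, counted to the first base of each match. The match nearest to the start reads CAGATG on the other strand, and AGATAA was not matched.
S1pr2 promoter: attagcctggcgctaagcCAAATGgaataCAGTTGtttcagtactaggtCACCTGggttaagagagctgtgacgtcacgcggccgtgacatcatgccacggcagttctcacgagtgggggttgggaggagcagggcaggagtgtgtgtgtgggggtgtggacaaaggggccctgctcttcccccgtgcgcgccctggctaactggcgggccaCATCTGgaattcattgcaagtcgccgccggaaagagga
The corresponding 250 bases before the Calcrl start matched none of the 3 motifs, and the 105 bases farthest from the start, outside annotated transcripts, are printed (chr2:84425412-84425516, minus strand).
Calcrl promoter: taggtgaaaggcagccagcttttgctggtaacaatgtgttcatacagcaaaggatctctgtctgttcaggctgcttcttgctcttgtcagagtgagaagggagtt
Among 32851 RefSeq promoter windows of the same length, 66.2% held CANNTG, 14.4% held CAGATG and 9.99% held AGATAA. GC content was 59.2% for the S1pr2 window and 48.4% for the Calcrl window. Binding of SCL at these windows was not analysed here.

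The balance of the pair of sphingosine-1-phosphate receptor genes differed more regularly between groups than S1pr1 did alone. The CPM of S1pr2 was 1.47, 2.48 and 1.39 times that of S1pr1 in WT libraries and 3.14, 6.70 and 3.31 times in Scl-/- libraries. The groups did not overlap, and the number 2 library had the largest excess of S1pr2 in each. The log2 ratio of S1pr1 to S1pr2 was -0.78 ± 0.46 in WT and -2.04 ± 0.61 in Scl-/- cells (SD, n = 3), a difference of -1.26. A two-sided exact permutation test gave p = 0.1, the smallest that 3 against 3 libraries allow. Within pairs the difference was -1.10, -1.43 and -1.26, with an SD of 0.17, and an exact sign-flip test over the 3 pairs gave its smallest possible p of 0.25.

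**Figure D2:**
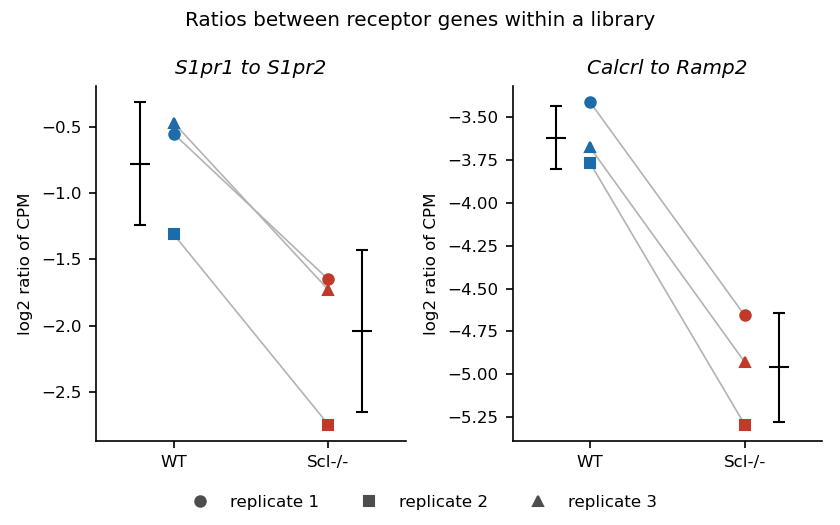
Log2 ratio of the CPM of S1pr1 to S1pr2 (left) and of Calcrl to Ramp2 (right) in WT (blue) and Scl-/- (red) libraries, with grey lines joining same-numbered libraries and black bars giving the mean and SD of 3 libraries. Both ratios are lower in Scl-/- cells in 3 of 3 pairs, by 1.10 to 1.43 for S1pr1 to S1pr2 and by 1.25 to 1.53 for Calcrl to Ramp2.

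Genes for the synthesis, transport and breakdown of sphingosine-1-phosphate went both ways. The median log2 fold change of 12 tested genes was -0.01, with 6 lower and 6 higher. Over all genes tested, 2.36% were called without the block and 12.6% with it. Without the block limma called 0 of 12, with 2 at an unadjusted p under 0.05, and with the block it called 1. That gene was Spns2, the sphingosine-1-phosphate exporter, which had 13.0, 7.45 and 14.4 CPM in WT and 8.44, 4.40 and 4.63 CPM in Scl-/- libraries. The groups overlapped but Spns2 was lower in 3 of 3 pairs, and its log2 fold change was -0.94 (limma's adjusted p = 0.00956 with the block and 0.185 without). It lies on chromosome 11, where the median of all genes was shifted upwards, and relative to that median it changed by -1.25. Mfsd2b, another exporter gene, and Asah1, a ceramidase gene, did not overlap between the groups, with log2 fold changes of -0.52 and -0.41, and were not called either way. These were 2 of the 12, where 21.6% of all genes did not overlap. Sphk2, the sphingosine kinase gene that was measured, had a log2 fold change of 0.14, and Sgpl1, which encodes the degrading lyase, one of 0.07. Acer2, a ceramidase gene, was listed on a pair of overlapping rows that moved differently (log2 fold changes of -0.13 and 0.87) and was not counted. S1pr3, S1pr4, S1pr5, Sphk1 and Apom were not analysed here.

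Calcrl (ENSMUSG00000059588, chromosome 2 from 84170783 to 84265568, minus strand, mm9) showed the largest change of the 5 genes. It had 12.2, 7.68 and 12.5 CPM in WT and 3.40, 2.47 and 3.74 CPM in Scl-/- libraries, which corresponds to between 102 and 516 reads. All Scl-/- libraries were below all WT libraries, and the number 2 library was the lowest of each group. The mean fell from 10.8 ± 2.72 CPM in WT to 3.20 ± 0.661 CPM in Scl-/- cells (SD, n = 3), 3.38-fold lower. The log2 fold change was -1.60 (standard error 0.24, 95% interval -2.16 to -1.04, limma's Benjamini-Hochberg adjusted p = 0.0205). The block narrowed the interval to -1.89 to -1.31 (limma's adjusted p = 1.6e-04). Differences within pairs were -1.71, -1.46 and -1.62, and the blocked change was called without any single pair, at -1.66 to -1.54. Without the block the call was lost when WT replicate 1 (limma's adjusted p = 0.129), WT replicate 3 (0.0742) or Scl-/- replicate 2 (0.0732) was left out, with log2 fold changes of -1.50, -1.48 and -1.45. In each of these fits limma called 0 of the 5 receptor genes, with 3 at an unadjusted p under 0.05.

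Its partner Ramp2 (ENSMUSG00000001240, chromosome 11 from 101107342 to 101120860, plus strand, mm9) was more abundant and changed less. It had 130.2, 105 and 160.1 CPM in WT and 85.8, 96.7 and 114 CPM in Scl-/- libraries. The groups overlapped, although Ramp2 was lower in 3 of 3 pairs. The mean was 132 ± 27.8 CPM in WT and 98.8 ± 14.2 CPM in Scl-/- cells (SD, n = 3). The log2 fold change of -0.40 had a 95% interval from -0.81 to 0.01 (limma's adjusted p = 0.294). With the block the interval was -0.62 to -0.18 (limma's adjusted p = 0.019), with a change smaller than the fold threshold. Differences within pairs were -0.60, -0.11 and -0.49, and without the number 2 pair the blocked fold change was -0.54 and called (limma's adjusted p = 0.0135).

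Values on chromosome 11 were shifted as a whole, which bears on the size of the Ramp2 change. The median log2 fold change of its 1211 tested genes was 0.31, and 25.6% of them were called with the block. Relative to this median Ramp2 changed by -0.71, which was called with the block (limma's adjusted p = 0.00118) and not without it (limma's adjusted p = 0.0691). The chromosomes of the other receptor genes had medians of 0.01 (chromosomes 2, 3 and 9), and their fold changes moved by less than 0.01 with the median removed. Vps25, the endosomal sorting gene that shares exon bases with Ramp2, had 76.9 CPM in WT and 82.4 CPM in Scl-/- cells, and its log2 fold change was 0.09. How its reads were divided from those of Ramp2 is not given in the sources used here.

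**Figure D3:**
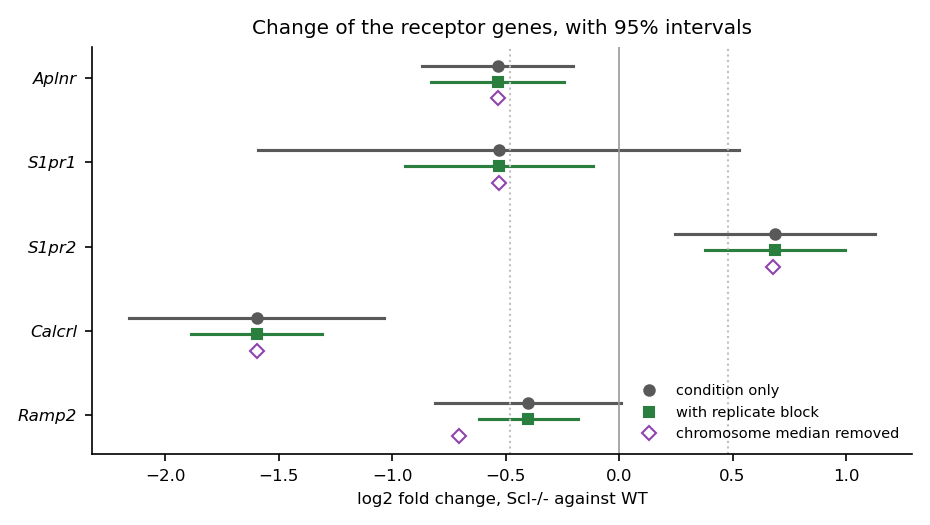
Log2 fold change of each receptor gene, Scl-/- against WT, with 95% intervals from limma without (grey circles) and with (green squares) the replicate block, and with the median of its chromosome removed (purple diamonds, no interval); dotted lines mark 0.48 in each direction. The block narrows the S1pr1 interval most, from -1.59 to 0.53 down to -0.95 to -0.12, and removing the chromosome median moves Ramp2 from -0.40 to -0.71.

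Calcrl was lower relative to Ramp2 in every Scl-/- library. The CPM of Ramp2 was 10.6, 13.6 and 12.8 times that of Calcrl in WT and 25.2, 39.2 and 30.5 times in Scl-/- libraries, without overlap. The log2 ratio of Calcrl to Ramp2 was -3.62 ± 0.18 in WT and -4.96 ± 0.32 in Scl-/- cells (SD, n = 3). The difference of -1.34 gave p = 0.1 in a two-sided exact permutation test, the smallest possible, and within pairs it was -1.25 (number 1), -1.53 and -1.25, with an exact sign-flip p of 0.25, again the smallest possible. With the medians of both chromosomes removed the difference was -1.03.

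Few other genes of the adrenomedullin and CGRP system were measured. Ackr3, an atypical receptor that takes up CXCL12 and adrenomedullin, had 38.1, 40.5 and 46.0 CPM in WT and 21.1, 13.3 and 17.1 CPM in Scl-/- libraries, with no overlap. It fell by 1.27 on the log2 scale (limma's adjusted p = 0.016, and 7.3e-04 with the block). Ackr3 lies on chromosome 1, whose median was -0.29, and relative to that median it changed by -0.99 and was called with the block only (limma's adjusted p = 0.00623 with and 0.0553 without). Crcp, a CGRP receptor component, had a log2 fold change of 0.24 and was not called either way. Adm, Adm2, Calca, Calcb, Calcr, Ramp1 and Ramp3 were not analysed here. Over the 17 tested genes of all 3 systems apart from the receptors themselves, 1 was called without the block and 3 with it (2 lower and 1 higher), against 2.36% and 12.6% of all genes, and the median log2 fold change was 0.06. Without WT replicate 1, WT replicate 3 or Scl-/- replicate 3, limma called 0 of the 17 without the block, with 3 at an unadjusted p under 0.05 in each of these fits.

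Among other receptors of the vascular wall, more genes were lower than higher in Scl-/- cells. Of 27 tested genes, 16 were lower and 11 higher, against 6747 lower and 7244 higher of all genes, and the median log2 fold change of the 27 was -0.31. Limma called 4 without the block, all lower, and 17 with it, 11 lower and 6 higher. Over all genes, 2.36% were called without the block and 12.6% with it, 6.6% lower and 6.04% higher. Without WT replicate 1 the first of these counts was 1. The thrombin receptor gene F2r was the most abundant of those called, with 408, 296 and 449 CPM in WT and 122, 125 and 128 CPM in Scl-/- libraries, and fell by 1.59 on the log2 scale (limma's adjusted p = 0.00468). Adgrl4, an adhesion receptor gene of endothelial cells listed as Eltd1, changed by -2.65, Adora2a, an adenosine receptor gene, by -2.61, and F2rl1, a protease-activated receptor gene, by -1.28, and all were called without the block (limma's adjusted p = 0.00899, 0.0105 and 0.0251). Adgrl4 was at 0.143, 0.0242 and 0.408 CPM in Scl-/- libraries, in replicate 2 under the 3-read floor of 0.0725 CPM. All these values were under the 0.5 CPM of the filter, which Adgrl4 passed only through WT. Its direction was thus fixed by the filter and adds no support to the counts of lower genes.

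With the block, Adgra2, a co-receptor gene for WNT signals in brain vessels (listed as Gpr124), and the adhesion receptor gene Adgrg1 (listed as Gpr56) were called lower as well, with log2 fold changes of -1.27 and -1.07. The genes that were higher with the block were the adrenergic receptor gene Adrb1 (1.81), the CXCL12 receptor gene Cxcr4 (1.00), the adenosine receptor gene Adora2b (0.86), the lysophosphatidic acid receptor gene Lpar4 (0.74), the endothelial orphan receptor gene Gpr182 (0.66) and the latrophilin gene Adgrl2 (0.51, listed as Lphn2). Adora2b lies on chromosome 11 and changed by 0.55 relative to its median, while Cxcr4 lies on chromosome 1 and changed by 1.29. Of the receptor genes for CXCL12, Cxcr4 was higher and Ackr3 lower in 3 of 3 pairs.

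G proteins, kinases, arrestins and RGS genes relay or limit the signals of such receptors. Of 36 tested genes, 17 were lower and 19 higher, with a median log2 fold change of 0.01. Limma called 1 gene without the block, Gna13, and 6 with it, 3 lower and 3 higher, where the shares of all genes were 2.36% and 12.6%. Gna13 encodes a G protein alpha subunit, and had 86.8, 87.5 and 76.3 CPM in WT and 149, 168 and 169 CPM in Scl-/- libraries, with no overlap. It rose by 0.95 on the log2 scale (limma's adjusted p = 0.00687), where 0.793% of all genes were called higher. Gna13 lies on chromosome 11 and changed by 0.65 relative to its median. Its relative Gna12 fell by 0.65 on the log2 scale with the block (limma's adjusted p = 7.6e-04), and Arhgef12, a guanine nucleotide exchange factor gene, fell by 0.58 (limma's adjusted p = 7.7e-04). The inhibitory alpha subunit gene Gnaz fell by 1.00 with the block, while Gng11 (0.73) and the adenylate cyclase gene Adcy3 (0.67) rose. The count without the block was 0 without WT replicate 1, with 6 genes at an unadjusted p under 0.05, 2 without WT replicate 2 and 3 without Scl-/- replicate 1.

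**Figure D4:**
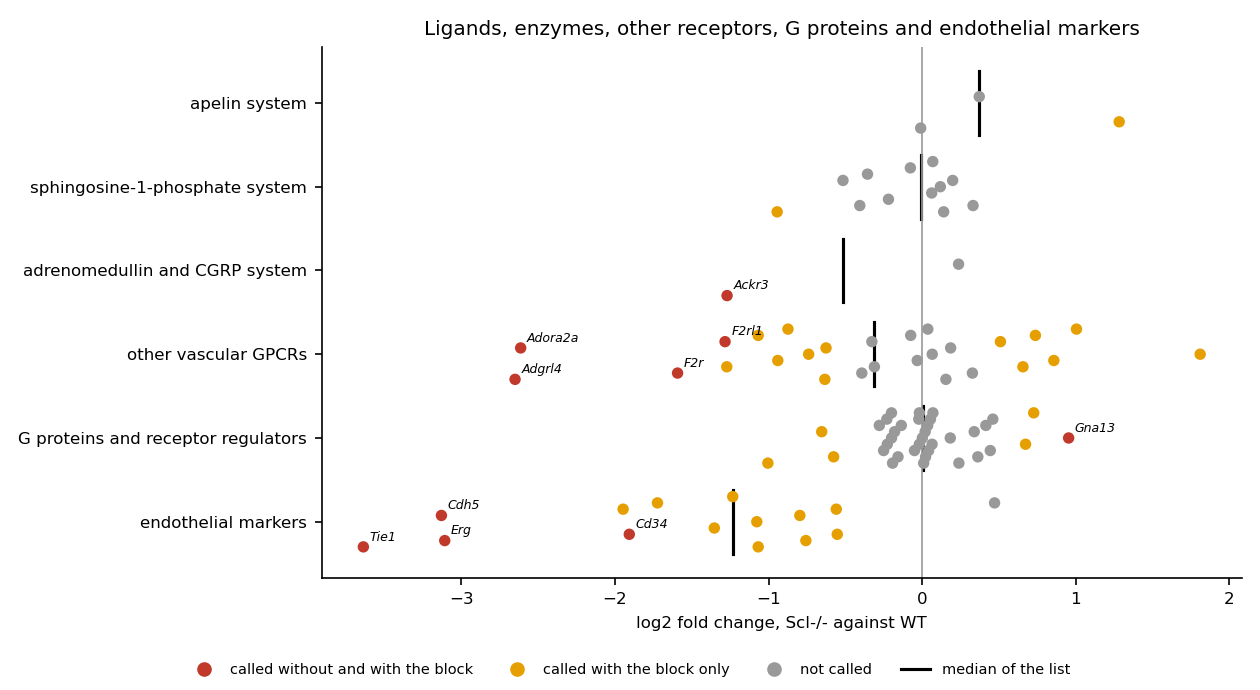
Log2 fold change, Scl-/- against WT, of the tested genes of 6 lists (rows), with called genes in red (without and with the block), genes called with the block only in orange and the rest in grey; vertical spread within a row has no meaning and black lines are medians. Endothelial markers lie furthest to the left, with a median of -1.23, other vascular receptors have a median of -0.31, and the G protein list is centred on 0.01.

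Markers of endothelial and blood cells were lower in the same libraries in which Calcrl was low. Of 15 endothelial markers, 14 were lower, where 6747 of all genes tested were lower and 7244 higher. Limma called 4 without the block (Cdh5, Tie1, Erg and Cd34) and 14 with it, all lower. Over all genes, 2.36% were called without the block (1.57% lower) and 12.6% with it (6.6% lower). The summed level of the list was 577, 324 and 735 CPM in WT and 276, 144 and 317 CPM in Scl-/- libraries, lowest in the number 2 library of each group, as for Calcrl and S1pr1. The count without the block was 0 without WT replicate 1, with 8 at an unadjusted p under 0.05, 1 without WT replicate 3, and 2 without Scl-/- replicate 1 or Scl-/- replicate 2. No endothelial marker was at 0 CPM in any library, and Eng, which encodes endoglin, had a log2 fold change of 0.47. All 6 blood markers were lower, and their sum was 24.5 to 66.2 CPM in WT and 4.50 to 6.01 CPM in Scl-/- cells. The embryonic globin gene Hbb-bh1 was at 0 CPM in all Scl-/- libraries. Gata1, Gfi1b and Hbb-bh1 were under 0.5 CPM in every Scl-/- library and passed the filter only through WT. Their direction was thus fixed by the filter and adds no support. The part of these cell types in the changes of the receptor genes was not tested.

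The FLK1+ label was borne out by Kdr, the gene of FLK1, at 832 to 868 CPM in WT and 724 to 810 CPM in Scl-/- cells. Of 10 markers of early mesoderm, 2 were called higher without the block and 7 with it, Mesp1 and T with the block only. Over all genes, 2.36% were called without the block (0.793% higher) and 12.6% with it (6.6% lower and 6.04% higher). The mesoderm markers summed to 2153 to 2505 CPM in WT and 2649 to 3299 CPM in Scl-/- cells. Markers of undifferentiated ES cells summed to 256 to 539.8 CPM in WT and 324 to 935 CPM in Scl-/- cells, with 1 of 9 called lower and 4 higher with the block. Endoderm markers summed to 25.2 to 34.0 CPM in WT and 18.0 to 34.9 CPM in Scl-/- cells. With the block, 1 of 3 was called lower (Sox17) and 1 higher (Epcam). The study names Sox17 among genes of endothelial development, and the other endoderm markers tested, Cer1 and Epcam, were higher in 3 of 3 pairs. Cardiac muscle markers summed to 16.0 to 23.9 CPM in WT and 27.8 to 43.2 CPM in Scl-/- cells, with 1 of 5 called lower and 2 higher with the block. Of 10 listed endoderm and 9 listed cardiac markers, 3 and 5 were tested. Without the block limma called 0 genes of these last 3 lists, with 3 ES cell, 2 endoderm and 3 cardiac markers at an unadjusted p under 0.05. Their part in the results for the receptors was not tested.

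The share of each gene's variance over the 6 libraries differed widely between the receptors. Genotype took 89.8% of the variance of log2(CPM + 0.5) for Calcrl, 72.8% for Aplnr, 71.2% for S1pr2, 46.9% for Ramp2 and 16.7% for S1pr1, against a median of 21.3% over all genes tested. The replicate number took 73.2% for S1pr1 and 40.3% for Ramp2, but only 1.24% for Aplnr, against a median of 58.4%. What remained was 0.355% for Calcrl and 25.9% for Aplnr, whose pairs differed unevenly.

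The nearest tested neighbours on either side of Aplnr, Calcrl and S1pr2 were not called with or without the block. Tfpi, 76.8 kb from Calcrl between gene midpoints, had a log2 fold change of -0.01, and Fam171b, 530.0 kb away on the other side, one of 0.24. Tnks1bp1 and Gm13713 beside Aplnr had 0.23 and -0.06, and Dnmt1 and Mrpl4 beside S1pr2 had -0.10 and 0.08. Within 500 kb, the block called 1 of 10 tested genes near Calcrl, 2 of 15 near Aplnr, and 3 lower and 1 higher of 33 near S1pr2, against 12.6% of all genes tested. The gene called near Calcrl was Ube2l6, 427 kb away, whose log2 fold change of -1.84 was larger in size than that of Calcrl, and which also lies within 500 kb of Aplnr. The 4 genes tested near S1pr1 had a median log2 fold change of 0.12. The nearest tested neighbours of S1pr1 were A930005H10Rik (175 kb, log2 fold change -0.43, not called) and Col11a1 (1590.0 kb, 0.75, called with the block).

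Of 35 tested genes within 500 kb of Ramp2, 10 were called lower and 3 higher with the block, with a median log2 fold change of 0.23. The blocked share was 25.6% on chromosome 11 and 12.6% over all genes, and the difference from the other loci was not tested. Wnk4, a kinase gene 16.2 kb away, changed by -4.21 and Cntnap1, an axonal adhesion gene on the other side, by -1.96. The nearest neighbours themselves, Vps25 and Ezh1, a Polycomb methyltransferase gene, had log2 fold changes of 0.09 and -0.38 and were not called. Ube2l6, Wnk4 and Cntnap1 were chosen after their values were seen.

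**Figure D5:**
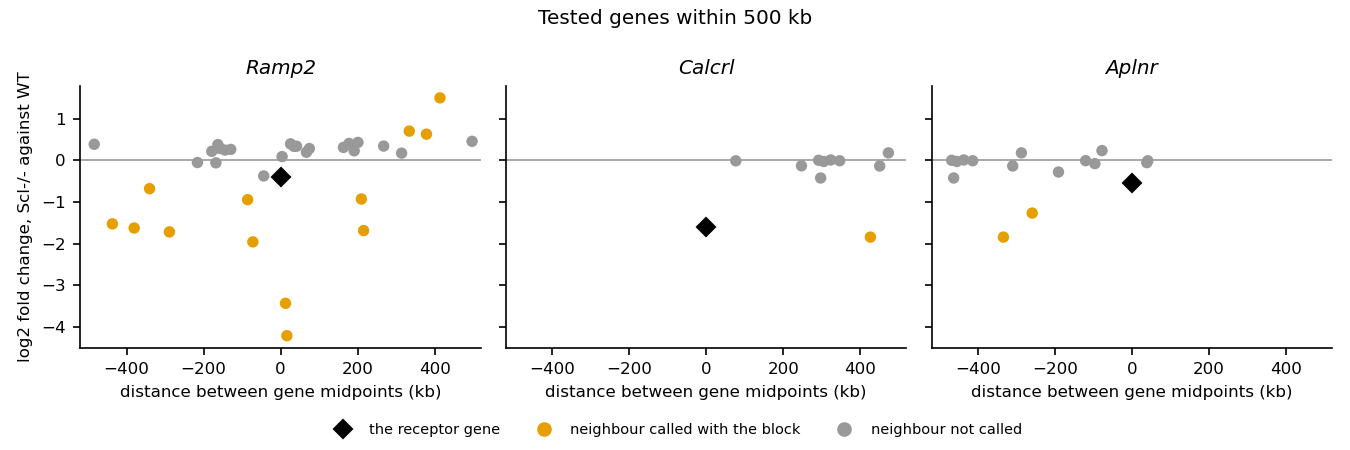
Log2 fold change, Scl-/- against WT, of the tested genes within 500 kb of Ramp2, Calcrl and Aplnr, against the distance between gene midpoints in kb; black diamonds are the receptor genes, orange points neighbours called with the block and grey points the rest. Around Ramp2, 13 of 35 neighbours are called and most others lie a little above 0, whereas of 10 neighbours of Calcrl, itself at -1.60, only Ube2l6 (-1.84) is called.

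Genes with the most similar profile over the 6 libraries were sought among 13953 tested genes that averaged 1 CPM or more, by the root mean square distance between centred log2 values. For Calcrl these were Mknk1 (distance 0.105, Pearson's r = 0.995), C77080 (0.105, r = 0.997) and Stat5a (0.112, r = 0.992). For Aplnr they were the basement membrane collagen gene Col4a2 (0.0966, r = 0.978), Cdkl1 (0.0973, r = 0.961) and Cdx1 (0.107, r = 0.965). Elmo3 (0.0692, r = 0.986), Gbp4 (0.0949, r = 0.974) and Prss8 (0.101, r = 0.988) were nearest to S1pr2, and Zbtb7b (0.136, r = 0.98), Padi3 (0.16, r = 0.969) and 1700066B19Rik (0.167, r = 0.968) to S1pr1. Syk (0.0647, r = 0.976), Mir5134 (0.0693, r = 0.972) and Gm10138 (0.077, r = 0.967) were nearest to Ramp2. Among the receptors, the closest pair was Aplnr and Ramp2 (0.252, r = 0.657) and the most distant S1pr2 and Calcrl (1.16, r = -0.703). These are descriptions over 6 libraries that share their group and differentiation.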

How the data were processed

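RNA was sequenced from day 3.5 FLK1+ EB cells, 3 WT and 3 Scl-/- libraries, grouped by genotype and replicate in the sample labels. The authors aligned reads to mm9 with TopHat2 2.0.8b, removed duplicate read pairs, filtered by mapping quality with SAMtools 0.1.19 and normalised with edgeR's TMM method, and deposited CPM values. The counter and gene annotation are not given in the sources used here. Removing duplicates can lower the values of abundant and short genes.

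The deposited CPM values were whole multiples of a step per library (100% within a tolerance of 0.01), which gave the reads. Since few low values are listed, this match was not taken to establish raw counts, and no count model was run. A count of 3 reads corresponds to 0.0615 to 0.0784 CPM, a floor that covers counting error only. Genes that reached 0.5 CPM in 3 or more libraries were retained, transformed to log2(CPM + 0.5) and tested with limma 3.58.1 in R 4.3.3 (lmFit, eBayes with trend), condition being the only term, with Benjamini-Hochberg adjustment over 13991 genes. The test was tried on simulated data. Other steps used Python 3.11.15, pandas 2.3.3, NumPy 2.4.6, SciPy 1.17.1 and Matplotlib 3.10.9.

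The replicate number was a block in an alternative fit. The design describes independent differentiations, and same-numbered libraries deviated together from their group means (r of 0.59, 0.76 and 0.75 across genes, against -0.62 to -0.10 for other pairs), so the numbers were taken to pair the samples. Ratios were compared by exact two-sided permutation tests. Nothing states more about the independence of the samples, so p-values measure the spread between these libraries.

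Positions and exon lengths come from GENCODE M1 (mm9), which held all 14005 identifiers, older symbols were matched through RefSeq synonyms, and promoter sequences are RefSeq's on GRCm38.p6. The receptor genes and all gene lists (apelin, sphingosine-1-phosphate, adrenomedullin and CGRP systems, other vascular receptors, G proteins and regulators, and markers of endothelial, blood, mesoderm, ES, endoderm and cardiac cells) were chosen with earlier results of these data known, and not every listed gene is reported here. Named are all 5 receptor genes, ligands, other receptors and called genes of the 3 systems, up to 6 genes each way with the largest change among called genes of the other receptor and G protein lists, up to 3 examples per marker list apart from called endothelial markers, the nearest tested neighbours and the 3 most similar profiles. Mme, Sphk2, Sgpl1, Crcp, Acer2, Vps25, Cer1, Epcam, Gata1, Gfi1b and the called endothelial markers were named after their values were seen. As alternatives, the pseudocount was set to 0.1 or 1, the filter was dropped or replaced by a mean of 2 CPM or more, and the others were median-ratio rescaling, no intensity trend, the replicate block, the median of the chromosome removed, each library left out, and no fold threshold or a threshold of 1.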

Additional observations from a re-analysis of the deposited data

How the results depend on the processing

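No direction was reversed for any of the 5 receptor genes or either ratio under the alternatives run. The numbers pair the samples, and with the replicate block Aplnr (-0.5351) and S1pr2 (0.6866) were called, with the chromosome median removed as well Aplnr (-0.5315), S1pr2 (0.6782) and Ramp2 (-0.7053). With the block, the calls rose from 1 to 3 for the receptor genes, from 1 to 3 for the other genes of the 3 systems, from 4 to 17 for other vascular receptors, from 1 to 6 for G proteins and regulators and from 4 to 14 for endothelial markers. With the block and the chromosome median removed together these counts were 4, 3, 17, 7 and 14. With the chromosome median removed and no block the systems count was 0, with 4 at an unadjusted p under 0.05 in limma, and with a fold threshold of 1 the G protein count was 0. In alternatives chosen after seeing the data, the block with the number 1, 2 or 3 pair left out called 3, 4 and 2 receptor genes. Aplnr was then called at -0.5188 without the number 1 and -0.7383 without the number 2 pair, S1pr1 at -0.8126 without the number 1 pair, S1pr2 at 0.8325 and 0.754 without the number 2 and 3 pairs, and Ramp2 at -0.5439 without the number 2 pair. Leaving out each library in turn gave log2 fold changes of -1.815 to -1.445 for Calcrl, -0.6537 to -0.4177 for Aplnr, -0.8398 to -0.0337 for S1pr1, 0.5546 to 0.8644 for S1pr2 and -0.5545 to -0.2482 for Ramp2, and counts of 0 to 1 for the receptor genes, 0 to 1 for the 3 systems, 1 to 5 for other vascular receptors, 0 to 3 for G proteins and 0 to 5 for endothelial markers. Over all genes the count was 330, 1768 with the block and, of the fits without the block that left out a library, lowest without WT replicate 1, at 44. With a library left out, the log2 ratios stayed between -1.529 and -0.9111 for S1pr1 to S1pr2 and between -1.494 and -1.175 for Calcrl to Ramp2, and with the chromosome median removed the latter was -1.033. The causes of these changes were not tested. Pseudocounts, filters, rescaling and the intensity trend changed no call of a receptor gene.

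With 3 libraries per group no permutation test can go below p = 0.1, and a change is that of 1 ES cell line against another. Calcrl in Scl-/- cells rests on 102 to 166 reads per library.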
